A study of Mus musculus with 2 samples.

Results

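The 34 genes described here encode the enzymes, carriers and regulators of mitochondrial and peroxisomal fatty acid oxidation. They were chosen by name, and all 34 symbols were found among the 55487 genes of the expression library. Fatty acids are first joined to coenzyme A by acyl-CoA synthetases, and long chains cross the inner mitochondrial membrane as carnitine esters. Inside, acyl-CoA dehydrogenases, hydratases, hydroxyacyl-CoA dehydrogenases and thiolases shorten the chain in repeated cycles, and the electron transfer flavoprotein passes electrons from the dehydrogenases to the respiratory chain. Peroxisomes shorten very long and branched chains by a related route. Regulatory T cells (Tregs), which restrain other immune cells and depend on the transcription factor Foxp3, are known to draw on fatty acid oxidation, and a population carrying the IL-33 receptor ST2 (Il1rl1) lives in visceral fat.

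CD4+ T cells came from the visceral fat and the spleen of mice of the C57BL/6 background that carried Foxp3.Cre-YFP, in which Cre is expressed under Foxp3 control and so acts in Foxp3-expressing cells. Per the labels, the mice were Treg-bmal1WT or Treg-bmal1KO (with or without Bmal1, the clock transcription factor encoded by Arntl, in Tregs), and were taken at ZT0 or ZT12, zeitgeber times in hours. All cells carried hashtag antibodies and were pooled into 1 expression library of 3′ unique molecular identifiers (UMIs) with 1 hashtag library. The labels do not give the number of mice behind each hashtag.

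Of the hashtags, 6 carried more than 1000 counts, numbered 1 to 6, and the labels tie none of them to a tissue, a genotype or a time. Tissues, genotypes and times were therefore not compared. Since hashtags without a known origin cannot serve as replicates, no test was run, and every comparison below is a description. Of 22960 barcodes in the expression library, 22952 were shared with the hashtag library. After hashtag calling and a filter on cells, 12629 T cells remained, with 43292382 UMIs and a median of 3138 UMIs per cell. The 34 genes took 0.117% of these UMIs, and 93.41% of T cells had at least 1 UMI of any of them. Levels are CPM (a gene's UMIs scaled to a fixed total of UMIs) of the summed cells with exact 95% Poisson intervals, which cover counting error only. Arntl itself was at 18 to 27.1 CPM in the ST2 Treg gate of hashtags 1 to 4 (defined below), with overlapping intervals, and at 16 to 20.2 CPM in T cells with neither Foxp3 nor Il1rl1; 3′ reads outside the deleted part check nothing about the deletion. The counts are not scaled for gene length, so levels are compared between cell groups and not between genes.

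T cells were divided by raw UMIs. The ST2 Treg gate held cells with Il1rl1 and any of Foxp3, Ikzf2 or Ctla4, and had 611, 514, 334, 448, 57 and 49 cells in hashtags 1 to 6. In hashtags 1 to 4 this gate carried other genes of adipose Tregs that the gate did not use, with Areg at 918 to 1743 CPM and Klrg1 at 536 to 700 CPM, against 57.1 to 156 CPM and 88.3 to 116 CPM in Foxp3-negative T cells. In hashtags 5 and 6 these levels were lower in the gate, with Areg at 70.8 and 80.3 CPM and Klrg1 at 66.3 and 62.4 CPM, though above Foxp3-negative T cells of those hashtags, at 24.2 and 19.9 CPM and at 16 and 13.8 CPM. There, Il1rl1 was found in 4.49% and 5.04% of T cells and in 4.44% and 4.50% of cells with naive genes, which should lack it, at median depths of 3445 and 3744 UMIs in T cells and 3991 and 4183 UMIs in naive-type cells. In hashtags 1 to 4 the Il1rl1 shares were 26%, 38.1%, 22.2% and 41.9% of T cells (median depths 2773 to 2837 UMIs) and 17.2%, 36.1%, 11.1% and 20.3% of naive-type cells (3888 to 4075 UMIs). In hashtag 2 the intervals of these shares overlapped, so the shares could not be told apart there. In hashtags 5 and 6 the share of T cells with Il1rl1 was within the counting interval of that in naive-type cells. For these shares naive-type cells were taken before cells with Il1rl1 or Foxp3 were excluded. The naive-type cells in all later comparisons have neither. The ST2 results are led by hashtags 1 to 4, a choice made after these values were seen, and the values over hashtags 1 to 5, as first planned, stand beside them.

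Summed over the 34 genes, the ST2 Treg gate was at 1493, 1501, 1454 and 1470 CPM in hashtags 1 to 4. Foxp3-negative T cells, those with no UMI of Foxp3 or Il1rl1, were at 1242, 1189, 1157 and 1116 CPM in the same hashtags. Naive-type cells, with at least 3 of 6 naive genes and no UMI of Foxp3, Il1rl1, Cxcr3 or Cxcr5, were lowest. They were at 966, 1014, 913 and 934 CPM. In each of these 4 hashtags the interval of the ST2 gate lay above those of both other groups. Cells with Foxp3 but no Il1rl1 (100, 48, 64 and 31 cells) were at 1326, 1344, 1162 and 1352 CPM. Their intervals overlapped those of the ST2 gate in hashtags 1, 2 and 4. In hashtag 3 they did not, at 1024 to 1313 against 1391 to 1519 CPM. Etfb, the gene of the beta subunit of the electron transfer flavoprotein, made up part of the gap to Foxp3-negative cells. Without Etfb, the ST2 gate was at 1265 to 1294 CPM and Foxp3-negative cells at 1016 to 1129 CPM. The groups also differed in depth: ST2 cells of hashtags 1 to 4 had median UMIs of 3173 to 3496, 1359 to 1441 genes and 2.36% to 2.49% mitochondrial UMIs, and Foxp3-negative cells 2512 to 2630 UMIs, 1147 to 1174 genes and 2.79% to 2.90%. The part of these differences in the result was not tested. Foxp3 itself had a UMI in 2.71% to 8.58% of T cells, so no UMI does not show that a cell is not a Treg. The Treg gene Ikzf2 was at 282 to 384 CPM in Foxp3-negative cells of hashtags 1 to 4 and at 695 to 898 CPM in the ST2 gate, which uses it. In hashtags 5 and 6 the ST2 gate was at 1141 and 1124 CPM, with intervals of 1006 to 1289 and 989 to 1271, and Foxp3-negative cells were at 1039 and 985 CPM.

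**Figure D1:**
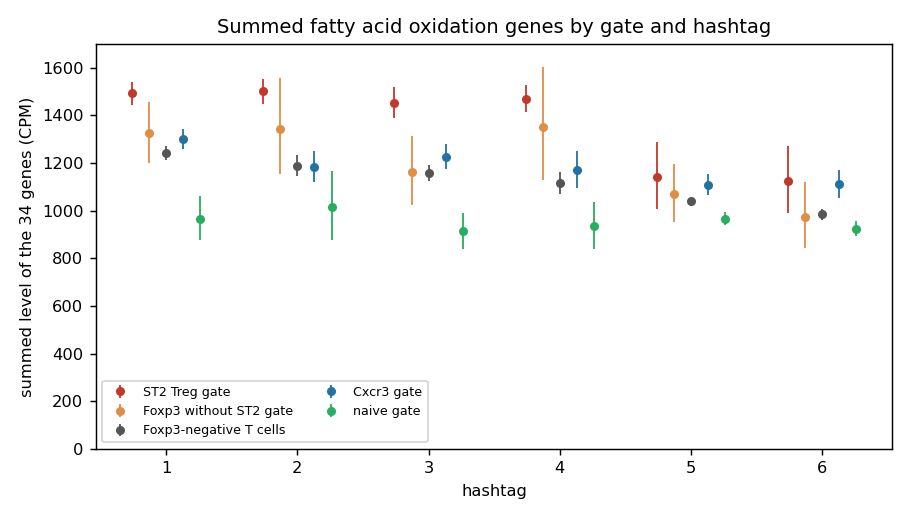
Summed level of the 34 genes in CPM (vertical axis) by hashtag (horizontal axis), with a point for each of 5 T cell groups and bars for exact 95% Poisson intervals. In hashtags 1 to 4 the ST2 Treg gate sits between 1454 and 1501 CPM, above Foxp3-negative T cells at 1116 to 1242 CPM.

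For single genes a fixed rule of size stood in for a test. A gene was called higher or lower when the pooled log2 ratio of CPM was at least 0.5 in size and had the same sign in every hashtag used, among the 7554 genes at 10 CPM or more over all T cells. Of the 34 genes, 26 passed that minimum. The 8 below it were Cpt1c, Cpt2, Crat, Acsl1, Acsl3, Acadsb, Ppara and Ppard.

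Between the ST2 Treg gate (1907 cells) and Foxp3-negative T cells (4955 cells) of hashtags 1 to 4, 5 of the 26 genes were called higher and 0 lower. Over all genes tested, 8.14% were called higher and 8.22% lower. The 5 were Etfb, Hadh, Hsd17b4, Acads and Decr1. The median log2 ratio was 0.26 over the 26 genes and -0.01 over all genes tested, and 16 of the 26 were above 0 in all 4 hashtags while 0 were below 0 in all 4. Of all 7554 genes tested, 1827 were above 0 in all 4 hashtags and 1744 below. Over hashtags 1 to 5, 4 were called higher (Cpt1a, Acadl, Acads and Hadh) and 0 lower, against 7.73% and 4.04% of all genes, with a median of 0.37 against 0.03. That pooled value mixes hashtags with different shares of naive-type cells among Foxp3-negative cells. These shares were 5.84% to 12.9% in hashtags 1 to 4 and 40.7% in hashtag 5. Etfb was not called over hashtags 1 to 5, where its log2 ratio did not keep the same sign in every hashtag.

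Without hashtag 4, 3 were called higher and 1 lower (Ppargc1b). Scaling also moved these calls. With CPM computed without mitochondrially encoded and ribosomal protein genes, 2 were called higher in hashtags 1 to 4 (Etfb and Hadh), 2 lower (Acsl1 and Ppard), and the median was 0.13. Acsl1 and Ppard were under the level minimum as reported. They passed it here because smaller totals raise every CPM, so this median is not over the same genes. Cells with a UMI of the proliferation genes Mki67 or Top2a made up 9.60% to 11.8% of the ST2 gate in hashtags 1 to 4. Without such cells in either group, 3 were called higher (Etfb, Hadh and Hsd17b4) and the median was 0.17. Within hashtags 1 to 4, Etfb and Hadh were called higher under every alternative run on this comparison. Acads, Decr1 and Hsd17b4 each missed the rule there under at least 1 alternative. Over the hashtags as first planned, Hadh was called higher as reported and Etfb was not. Counts and medians under these alternatives are given without the matching values over all genes. The changed scaling moves the pooled log2 ratio of every gene by the same amount. The lower median under it thus includes a shift shared by all genes. Under the other alternatives such a shift cannot be told apart here from a shift of these genes.

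**Figure D2:**
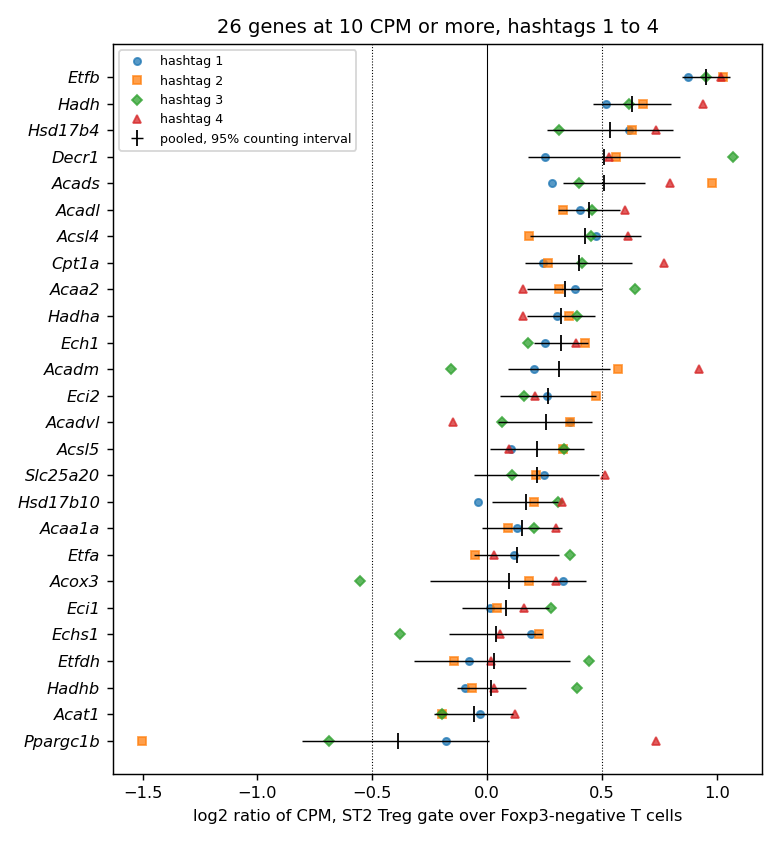
Log2 ratio of CPM, ST2 Treg gate over Foxp3-negative T cells (horizontal axis), for the 26 genes at 10 CPM or more (vertical axis), with a symbol for each of hashtags 1 to 4 and a black bar for the pooled value and its 95% counting interval. Dotted lines mark 0.5 and -0.5; Etfb lies at 0.87 to 1.03 in all 4 hashtags.

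The electron transfer flavoprotein is a dimer of Etfa and Etfb that hands electrons to the membrane enzyme Etfdh. Etfb (ENSMUSG00000004610) was at 207, 207, 190 and 203 CPM in the ST2 gate of hashtags 1 to 4. In Foxp3-negative cells it was at 113, 102, 98.1 and 100 CPM. The point values of the 2 groups, taken without their intervals, did not overlap. The pooled log2 ratio was 0.95, with a counting interval of 0.85 to 1.06. The partner subunit showed no such gap. Etfa was at 50.5, 49.6, 53.4 and 49.9 CPM in the ST2 gate and at 46.5, 51.6, 41.7 and 48.9 CPM in Foxp3-negative cells. These point values overlapped, and the log2 ratio was 0.13 (interval -0.06 to 0.31). Etfdh was at 14.8 and 14.5 CPM, a log2 ratio of 0.03 (interval -0.32 to 0.36).

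The ratio of Etfb to Etfa UMIs was 4.10, 4.17, 3.55 and 4.07 in the ST2 gate of hashtags 1 to 4. It was 2.43, 1.97, 2.35 and 2.05 in Foxp3-negative cells, and in hashtags 1, 2 and 4 the intervals of the 2 groups did not overlap. In hashtag 3 they did, at 2.74 to 4.66 and 1.96 to 2.83. Cells with Foxp3 but no Il1rl1 had ratios of 3.64, 3.3 and 3.0 in hashtags 1, 3 and 5. Their intervals were wide, at 1.99 to 7.13 in hashtag 1. They overlapped those of the ST2 gate in hashtags 1 and 3, and those of Foxp3-negative cells in hashtags 1, 3 and 5. The ST2 gate of hashtag 6 had 1.385, from 18 and 13 UMIs (interval 0.641 to 3.07). Naive-type cells of hashtags 5 and 6, where they were most numerous, had ratios of 1.20 and 1.28. In hashtags 1, 3 and 4 naive-type cells had 1.31, 1.37 and 3.38, the last from 27 and 8 UMIs with an interval of 1.49 to 8.60 that overlapped the ST2 gate. Because UMI counts are not length-scaled, only the change of the ratio between groups can be read.

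**Figure D3:**
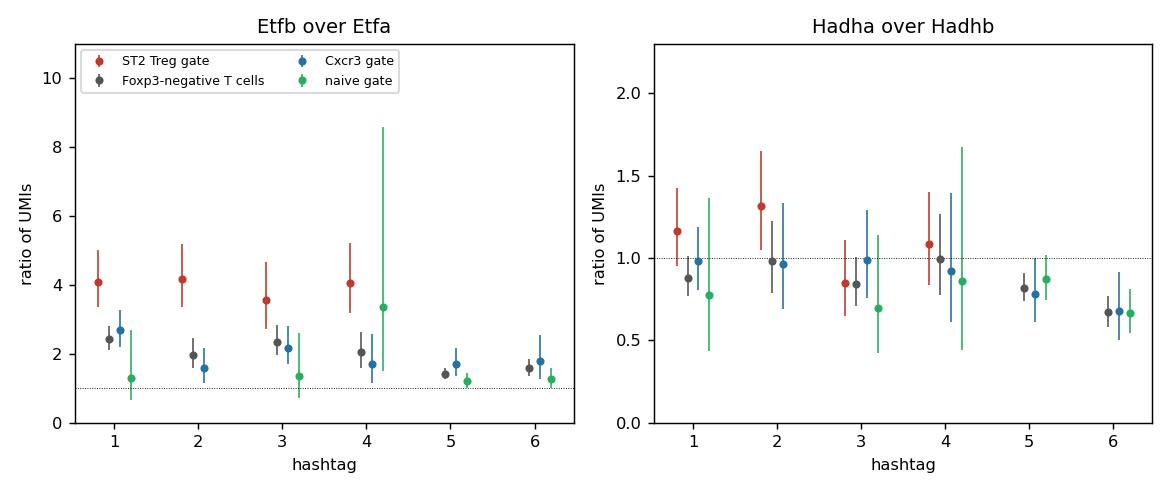
Ratio of UMIs of Etfb over Etfa (left) and Hadha over Hadhb (right) on the vertical axis, by hashtag, for 4 T cell groups, with exact 95% intervals and only where both genes together had 30 UMIs. The Etfb to Etfa ratio of the ST2 Treg gate is 3.55 to 4.17 in hashtags 1 to 4, above the 1.97 to 2.43 of Foxp3-negative T cells. Cells with Foxp3 but no Il1rl1 are not drawn. Their Etfb to Etfa ratios in hashtags 1 and 3 were 3.64 and 3.3, with intervals that overlapped the ST2 Treg gate.

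The window upstream of Etfb is shown because it had the largest log2 ratio of the 26 genes in this comparison. It is given with those of Hadhb and Cpt1a, described further on, as 250 bases before each start (RefSeq, GRCm38.p6), 5′ to 3′ on the gene's strand. Capitals mark matches on either strand to the nuclear receptor half-site AGGTCA, the GC box GGGCGG or the CCAAT box.
Etfb, chr7:43443822-43444071, plus strand: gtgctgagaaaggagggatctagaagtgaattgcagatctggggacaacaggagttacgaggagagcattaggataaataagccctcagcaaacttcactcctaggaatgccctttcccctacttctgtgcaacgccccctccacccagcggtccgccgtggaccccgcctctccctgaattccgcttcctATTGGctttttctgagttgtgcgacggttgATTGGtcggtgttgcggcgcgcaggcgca
Hadhb, chr5:30155003-30155252, plus strand: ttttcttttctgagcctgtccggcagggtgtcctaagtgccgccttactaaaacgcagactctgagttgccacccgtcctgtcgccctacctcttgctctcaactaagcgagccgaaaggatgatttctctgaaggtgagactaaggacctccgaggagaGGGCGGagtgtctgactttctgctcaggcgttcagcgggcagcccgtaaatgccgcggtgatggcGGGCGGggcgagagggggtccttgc
Cpt1a, chr19:3323051-3323300, plus strand: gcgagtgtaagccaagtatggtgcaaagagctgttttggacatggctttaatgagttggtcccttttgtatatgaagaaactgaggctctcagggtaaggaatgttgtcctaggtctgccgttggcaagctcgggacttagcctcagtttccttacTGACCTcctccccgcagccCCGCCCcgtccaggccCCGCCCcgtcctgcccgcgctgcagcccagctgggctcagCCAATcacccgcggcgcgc
In windows of 300 bases, from 250 before to 50 after the start, 28 of the 34 genes matched, with 29 windows. AGGTCA lay in 5 of them (17.2%), those of Acadm, Acadvl, Cpt1a, Cpt1c and Echs1, and in 16.3% of all 32851 windows. The E-box CACGTG lay in 0 of the 29 and in 7.15% of all windows. The palindromic NRF1 site lay in 2 (6.90%), those of Etfdh and Ppara, against 0.971% of all, and the ETS site CCGGAAGT in 2 (6.90%), those of Cpt2 and Slc25a20, against 3.89%. The direct repeat of AGGTCA with 1 base between the copies, and TCAAGGTCA, an extended half-site, lay in 0, against 0.0396% and 0.423% of all. GGGCGG lay in 24 (82.8%) against 35.7% of all windows, and CCAAT in 13 (44.8%) against 37.4%. Those last motifs were added after 6 others had been searched, and the windows of all genes include genes under the 10 CPM minimum in T cells. These are matches of letters and not shown to be binding sites.

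Among the enzymes after the first dehydrogenation, Hadh, the mitochondrial hydroxyacyl-CoA dehydrogenase for medium and short chains, was higher in the ST2 gate. It was at 67.1, 65.5, 67.8 and 71.9 CPM in hashtags 1 to 4, against 46.9, 40.8, 44.3 and 37.4 CPM in Foxp3-negative cells. The point values of the groups did not overlap, and the pooled log2 ratio was 0.63 (interval 0.46 to 0.80). Hadha and Hadhb, the subunits of the mitochondrial trifunctional protein that handles long chains, did not pass the rule. Hadha was at 81.7 against 65.3 CPM, a log2 ratio of 0.32 (interval 0.17 to 0.47) and above 0 in all 4 hashtags. Hadhb was at 73.3 against 72.4 CPM, a log2 ratio of 0.02 (interval -0.13 to 0.17). These genes start 273 bases apart on opposite strands of chromosome 5, and their windows share 228 bases. Their UMI ratio, Hadha to Hadhb, was 1.16, 1.32, 0.847 and 1.08 in the ST2 gate and 0.881, 0.982, 0.845 and 0.993 in Foxp3-negative cells, with intervals that overlapped in each hashtag.

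The hydratase Echs1 (log2 ratio 0.04), the thiolase Acat1 (-0.06) and the dehydrogenase Hsd17b10 (0.17) stayed under the rule. Acaa2, the mitochondrial thiolase, had a log2 ratio of 0.34 and was above 0 in all 4 hashtags. Of the auxiliary enzymes that prepare unsaturated chains, the dienoyl-CoA reductase Decr1 was called higher, at 17.7 against 12.5 CPM and a log2 ratio of 0.51 (interval 0.18 to 0.84). Ech1, Eci1 and Eci2 had log2 ratios of 0.32, 0.08 and 0.27.

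The acyl-CoA dehydrogenases open each mitochondrial cycle and differ in the chain length they prefer. Acads, for short chains, was at 58.8, 62.7, 54.1 and 58.2 CPM in the ST2 gate and at 48.5, 31.8, 41.2 and 33.4 CPM in Foxp3-negative cells. All 4 ST2 values were above all 4 Foxp3-negative values, with a pooled log2 ratio of 0.51 (interval 0.33 to 0.69). Acadl, for long chains, was at 104, 99.7, 93.8 and 105 CPM against 78.3, 79.2, 68.4 and 69.4 CPM. Those point values did not overlap either, but its log2 ratio of 0.44 (interval 0.31 to 0.58) was under the rule. Acadm, for medium chains, had a log2 ratio of 0.31 and was below 0 in hashtag 3, and Acadvl, for very long chains, had 0.25 and was below 0 in hashtag 4. Acadsb, for branched chains, was under the level minimum at 6.34 against 8.76 CPM.

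For transport, Cpt1a, the carnitine palmitoyltransferase of the outer membrane that limits entry of long chains, was at 32.2, 32.8, 33.2 and 41.0 CPM in the ST2 gate. Foxp3-negative cells were at 27.2, 27.2, 25.1 and 23.9 CPM. The point values of the groups, taken without their intervals, did not overlap. The log2 ratio of 0.40 (interval 0.17 to 0.63) was under the rule in hashtags 1 to 4, while over hashtags 1 to 5 it was 0.76 and called higher. Slc25a20, the carnitine-acylcarnitine carrier, had a log2 ratio of 0.22. Of the acyl-CoA synthetases, Acsl4 and Acsl5 had log2 ratios of 0.43 and 0.22, above 0 in all 4 hashtags. Acsl1 went the other way, at 4.77, 10.8, 5.05 and 5.35 CPM in the ST2 gate against 12.8, 11.6, 8.91 and 14.5 CPM, with a log2 ratio of -0.82 (interval -1.31 to -0.37), but it was under the level minimum over all T cells. Cpt2, Crat and Acsl3, at 4.40, 4.27 and 5.18 CPM in the ST2 gate, had intervals of the ratio that included 0. Cpt1c had 1 UMI in the ST2 gate and 0 in Foxp3-negative cells.

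Of the peroxisomal enzymes, the multifunctional Hsd17b4 was at 25.8, 24.3, 25.2 and 26.7 CPM in the ST2 gate and at 16.9, 15.7, 20.5 and 16 CPM in Foxp3-negative cells. The point values of the groups, taken without their intervals, did not overlap, and the log2 ratio was 0.54 (interval 0.26 to 0.81). The oxidase Acox3 (0.10) and the thiolase Acaa1a (0.15) were not called, and reads of Acaa1a could be shared with its close copy Acaa1b. Among the regulators, the coactivator Ppargc1b had a log2 ratio of -0.39 (interval -0.81 to 0.01), with hashtags on both sides of 0. The nuclear receptor Ppard was at 7.12 against 10.8 CPM, below 0 in all 4 hashtags and under the level minimum. Ppara, another nuclear receptor, had 1 UMI in each group.

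**Figure D4:**
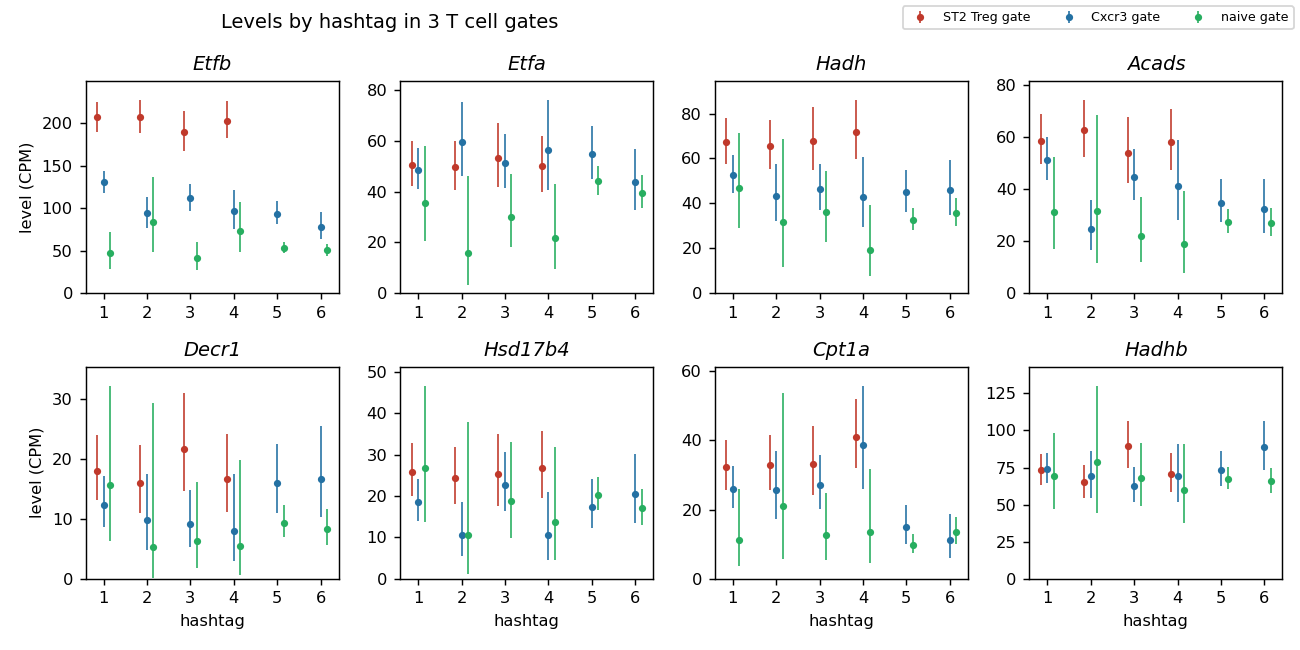
Level in CPM (vertical axes, each from 0) by hashtag (horizontal axes) of 8 genes in the ST2 Treg gate (hashtags 1 to 4), the Cxcr3 gate and the naive gate, with exact 95% Poisson intervals. Etfb in the ST2 gate is at 190 to 207 CPM, against 93.9 to 130 CPM in the Cxcr3 gate of the same hashtags, whereas Etfa and Hadhb overlap between these gates.

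Other genes of fatty acid handling were read from lists drawn up by function. Of the other mitochondrial genes, 12 of 23 were at 10 CPM or more, of which 0 were called higher and 2 lower in the ST2 gate of hashtags 1 to 4. These were Ivd, isovaleryl-CoA dehydrogenase of leucine breakdown (log2 ratio -0.62), and the thioesterase Acot2 (-0.67). Of 19 other peroxisomal genes, 9 passed the minimum and 0 were called in either direction. Of 9 genes of uptake and binding, 6 passed and 1 was called higher, the lipid-binding protein Fabp5 at 168 against 65.8 CPM (log2 ratio 1.36). Of 17 regulators, 10 passed and 1 was called higher, the nuclear receptor Pparg at 58.9 against 8.90 CPM (log2 ratio 2.72), which is also a marker of adipose Tregs.

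Markers of other cell types were summed in the same groups of hashtags 1 to 4. Of 5 adipocyte markers, 2 had a UMI in the ST2 gate of each hashtag, and their sum was 1.19 to 3.18 CPM against 2.41 to 4.22 CPM in Foxp3-negative cells. Plin1 was at 0 in the ST2 gate and Adipoq was at 0 in hashtags 1, 2 and 4. Macrophage markers, 5 or 6 of 6 with a UMI, summed to 29.0 to 41.6 CPM against 47.3 to 51.6 CPM, and endothelial markers, all 4 with a UMI, to 30.6 to 34.6 CPM against 57.8 to 65.9 CPM. In each hashtag these 3 sums were lower in the ST2 gate. Stromal markers summed to 18.7 to 29.1 CPM against 27 to 29.2 CPM. B cell markers summed to 6.53 to 15.9 CPM against 6.15 to 6.60 CPM, higher in the ST2 gate of each hashtag, and their part in the results was not tested. Proliferation markers were higher in the ST2 gate, at 207 to 286 CPM against 73.4 to 148 CPM, and the counts without cells carrying Mki67 or Top2a are given above.

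Foxp3-negative T cells mix resting and activated cells, so the ST2 gate was also set against cells with Cxcr3, a chemokine receptor of Th1-type cells, in hashtags 1 to 4, a comparison added after the data were seen. Of 26 genes, 3 were called higher (Etfb, Decr1 and Hsd17b4) and 0 lower, with 7.57% and 7.72% of all genes called. The Cxcr3 gate carried Etfb at 130, 93.9, 112 and 96.3 CPM, and the log2 ratio was 0.82 (interval 0.69 to 0.94). Decr1 had a log2 ratio of 0.75 and Hsd17b4 of 0.54. Hadh, at 0.49, was just under the rule. The median was 0.21 against -0.03 over all genes. Without hashtag 1, 6 were called higher, and without hashtag 4, 2. Of the other genes listed, Pparg and Fabp5 were called higher, at 2.96 and 1.43. These comparisons share the ST2 cells, and Cxcr3-gate cells are part of the Foxp3-negative cells, so they are not independent.

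Cells with Foxp3 but no Il1rl1 were few, at 301 in hashtags 1, 3, 5 and 6, against 8151 Foxp3-negative cells. Here 2 of 26 genes were called higher and 1 lower, with 7.10% and 2.08% of all genes called. Etfb was called higher, with log2 ratios of 0.51, 0.63, 0.54 and 0.70 in these hashtags and a pooled value of 0.68 (interval 0.41 to 0.93). Slc25a20 was called higher at 0.63 (interval -0.02 to 1.18) and Acadm lower at -0.54 (interval -1.30 to 0.06), both with counting intervals that included 0. The median was 0.11 in the 26 genes and 0.11 over all genes. Without hashtag 5, Acadm was no longer called and 0 were lower, and without hashtag 1 or 3, 2 were lower.

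Between the ST2 gate and Foxp3 cells without ST2, over hashtags 1, 3 and 5 as first planned, Acadm and Hadh were called higher and 0 were called lower, against 5.94% and 6.75% of all genes. Etfb was not called in either direction. Hadh was at 66.1 against 34 CPM (log2 ratio 0.94, interval 0.40 to 1.58), and Acadm at 33.4 against 19.4 CPM (0.74, interval 0.03 to 1.63). Without hashtag 3, 4 were called higher. Without hashtag 5, which leaves hashtags 1 and 3 of the first 4, Hadh (0.70) and Decr1 (1.22) were called higher and Acadvl (-0.55) and Ppargc1b (-0.60) lower, Acadm was at 0.33, and the median was 0.19. Of the listed genes outside the 34, Pparg (1.91) and Acot13 (1.17) were among those called higher, and the lowest ratios were those of Ivd (-1.22), Acot2 (-0.97) and Cd36 (-0.69).

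Among cells with no UMI of Foxp3 or Il1rl1, the Cxcr3 gate (2954 cells) was set against naive-type cells (2507 cells) in all 6 hashtags. Of 26 genes, 3 were called higher (Etfb, Ech1 and Acadl) and 0 lower, while 14.0% of all genes were called higher and 2.25% lower. Etfb was at 106 against 52.5 CPM (log2 ratio 1.01, interval 0.87 to 1.17), Ech1 at 107 against 66.6 CPM (0.68) and Acadl at 74.9 against 52.1 CPM (0.52). These pooled values mix hashtags, since 873, 386, 540, 247, 587 and 321 Cxcr3 cells stood against 117, 52, 157, 92, 1232 and 857 naive-type cells in hashtags 1 to 6. Within hashtags the log2 ratio of Etfb was 1.45, 0.12, 1.43, 0.37, 0.82 and 0.64, a median of 0.73, and the medians of Ech1 and Acadl were 0.50 and 0.60. Over the pooled hashtags the Treg genes Ikzf2, Ctla4, Il2ra, Tnfrsf18, Capg and Izumo1r were also higher in the Cxcr3 gate. Ikzf2 was at 336 against 76.6 CPM and Ctla4 at 120 against 39.6 CPM. The Treg gene Gpr83 was lower, at 6.11 against 10.1 CPM. Tregs without a Foxp3 UMI can be among these cells, and their part in the result was not tested. The median was 0.31, beside 0.26 over all genes. Centred on the all-gene median, or scaled without mitochondrially encoded and ribosomal protein genes, 0 were called higher. Without hashtag 5 or 6, 5 were called higher. The peroxisomal carnitine transferase Crot (1.28), Fabp5 (1.05) and the mitochondrial carrier Ucp2 (0.75) led the other listed genes.

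Cells with Cxcr5, the receptor of follicular helper T cells, were set against naive-type cells in hashtags 5 and 6 (322 and 2089 cells). Of the 26 genes, 5 were called higher (Etfdh, Decr1, Etfb, Hadha and Acads) and 0 lower, against 27.1% and 4.28% of all genes. Their log2 ratios were 0.92, 0.90, 0.60, 0.57 and 0.56. The median of 0.18 was below that of all genes, 0.28, and 2 were called higher after centring on the latter. Pparg (1.36, from 6 against 18 UMIs) and Dbi (0.87) were among the other listed genes called higher, and Hibch (-0.52) and Prkaa1 (-0.51) were called lower. In hashtags 5 and 6 the Cxcr5 gate had Ikzf2 at 561 and 534 CPM, against 78.3 and 62.0 CPM in naive-type cells. The Th1 gene Ccl5 was at 2766 and 2297 against 281 and 230 CPM, and the follicular helper gene Pdcd1 at 164 and 201.5 against 8.19 and 4.26 CPM. Tregs without a Foxp3 UMI and Th1-type cells can be in this gate, and their part was not tested.

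Pairs of hashtags were also compared within a gate, with a call where the log2 ratio was at least 0.5 in size and the Poisson intervals did not overlap. Among hashtags 1 to 4 of the ST2 gate, 2 of 156 gene values were called (1.28%), against 2.22% over all genes. Ppargc1b was at 11.5, 4.21, 7.93 and 14.3 CPM and called between hashtags 4 and 2, and Acaa2 was at 73.1, 59.4, 83.7 and 52.3 CPM and called between hashtags 4 and 3. Etfb was lower in the ST2 gate of hashtag 5, at 57.5 CPM, than in each of hashtags 1 to 4, which made 6 calls of 260 over all 5 hashtags (2.31%), against 5.18% of all genes. In the Cxcr3 gate, 10 of 390 values were called (2.56%), against 4.67% of all genes. Cpt1a, at 26, 25.7, 27.1 and 38.8 CPM in hashtags 1 to 4 and 15 and 11.1 CPM in hashtags 5 and 6, accounted for 4 of these. Acadl gave 3, Etfb 2 and Acads 1. The call of Acads, between hashtags 2 and 1, was the 1 of 156 within hashtags 1 to 4 (0.641%), against 1.29% of all genes. Among Foxp3 cells without ST2, 0 of 156 values were called, against 2.71% of all genes. In the naive gate 2 of 390 (0.513%) were called, Acsl5 and Etfdh, against 2.55%.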

How the data were processed

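The authors deposited raw UMI counts per gene and barcode, and raw hashtag counts per barcode. Cell Ranger 6.0, Seurat 3 and mm10 are named per the submitters' processing notes, whereas the file header gives cellranger 4.0.0, and which is right could not be settled. HTODemux (Seurat 5.3.0 in R 4.3.3, positive quantile 0.99) called hashtags and returned 14879 singlets, 5804 doublets and 2269 uncalled barcodes. Doublets were left out, but a doublet within 1 hashtag goes unseen. Of the singlets, 13599 had 500 genes or more and less than 10% of UMIs from mitochondrial genes, and only these were used. A T cell had at least 1 UMI of a T cell receptor or Cd3 gene and fewer than 3 UMIs of other-cell markers. Counts were summed per hashtag and gate with numpy 2.4.6 and pandas 2.3.3, and intervals with scipy 1.17.1 (Python 3.11.15). Ratios used a prior count of 0.5 and hashtags with at least 50 cells on both sides, with exact intervals at 95%.

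The genes and lists were chosen with earlier results of these data known. All 34 genes are reported. Of the other listed genes, up to 3 per direction and comparison with the largest pooled ratio among those called are named, except a few that are not reported here. The restriction to hashtags 1 to 4, the comparison with the Cxcr3 gate, the wider Foxp3 gate and 2 of the promoter motifs were added after the data were seen. Alternatives covered the hashtag call, cell filter, scaling, prior count, level minimum, gates and each hashtag left out.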

Additional observations from a re-analysis of the deposited data

Results flagged for a closer look

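Barcodes left out of the comparisons because they held 3 or more UMIs of other-cell markers (929 barcodes, median 4290 UMIs) carried 10 of the 34 genes at least 1.5-fold above T cells with Poisson intervals that did not overlap, and 1, Ppargc1b, lower. Of the 26 genes at 10 CPM or more in T cells, 4 were higher and 1 lower, against 7.90% and 5.12% of all 7554 genes at that level. Of the 8 below it, 6 were higher, against 19.6% of the 16997 genes below it with a UMI in T cells. That background takes in genes with as little as 1 UMI and was not matched for level, so the shares are not alike. The genes of the carnitine acyltransferase family were Cpt1a at 33.4 CPM, Cpt1c at 2.04 CPM, Cpt2 at 9.08 CPM and Crat at 12.4 CPM. The synthetases were Acsl1 at 15.9 CPM and Acsl3 at 7.04 CPM. The others were Acadsb at 21.1 CPM, Eci2 at 48.8 CPM, Decr1 at 22.6 CPM and Hsd17b4 at 31.3 CPM. Etfb, at 132 CPM, was not among them.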

How the results depend on the processing

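No ratio of the 34 genes that was called as reported changed sign under any alternative run. Acox3 in ST2 over Foxp3 without ST2, not called at -0.26, was at 0.67 and called higher with Foxp3 required in the ST2 gate. Counts below are of these genes called higher or lower, and medians are of their log2 ratios. Here and for the alternatives above, most are given without the matching values over all genes. The changed scaling moves the pooled log2 ratio of every gene by the same amount. Under the others, a shift shared by all genes cannot be told apart from a shift of these genes. With a raw top tag holding 70% of tag counts, ST2 over Foxp3-negative cells in hashtags 1 to 4 had 3 higher, and over the Cxcr3 gate a median of 0.14. Foxp3 without ST2 over Foxp3-negative cells had 1 higher and a median of 0.18, and Cxcr5 over naive a median of 0.21. Pairs of hashtags then gave 13 calls in the ST2 gate (6 as reported), 3 in Foxp3 without ST2 and 16 in the Cxcr3 gate. With the stricter cell filter, Foxp3 without ST2 had 4 higher and 2 lower, ST2 over Foxp3 without ST2 had 5 higher and 1 lower, the Cxcr5 median was 0.20 and naive pairs gave 0 calls.

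Without cells with Mki67 or Top2a, ST2 over Foxp3-negative cells had a median of 0.25 over hashtags 1 to 5, and 3 higher with a median of 0.17 over hashtags 1 to 4. Over the Cxcr3 gate the median was 0.16, over Foxp3 without ST2 it was 0.19 with 4 higher, and for Cxcr5 it was 0.13. Scaling without mitochondrially encoded and ribosomal protein genes raised every CPM, so genes under the level minimum as reported could pass it. With this scaling, ST2 over Foxp3-negative cells had 2 lower and a median of 0.20 over hashtags 1 to 5. Over hashtags 1 to 4 it had 2 higher, 2 lower and a median of 0.13. Over the Cxcr3 gate there was 1 lower and a median of 0.11, and over Foxp3 without ST2 1 lower and 0.13. Foxp3 without ST2 had 2 lower and a median of -0.04, Cxcr3 over naive 0 higher and 0.02, and Cxcr5 over naive 2 higher and -0.07. Centred on all genes, these last 3 had 2 lower and -0.01, 0 higher and 0.05, and 2 higher and -0.10.

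With a prior count of 2, Foxp3 without ST2 had 5 higher and 0 lower, ST2 over it 1 higher and a median of 0.18, and Cxcr5 a median of 0.22. Without the level minimum, ST2 over Foxp3-negative cells had 7 higher and 2 lower over hashtags 1 to 5, and 8 higher and 2 lower over hashtags 1 to 4. The other values were 1 lower over the Cxcr3 gate, 4 higher in Foxp3 without ST2, 1 lower and a median of 0.17 for ST2 over it, and 0.15 for Cxcr5. Taking the median over hashtags, ST2 over Foxp3-negative cells was at 0.29, Foxp3 without ST2 had 1 higher and 0 lower, ST2 over it 1 higher and 0.12, and Cxcr5 0.13. With Foxp3 required in the ST2 gate, ST2 over Foxp3 without ST2 had 6 higher, 1 lower and a median of 0.20, ST2 over Foxp3-negative cells in hashtags 1 to 4 a median of 0.34, and over the Cxcr3 gate 5 higher and 0.30. With 4 naive genes required, Cxcr3 over naive had 5 higher and Cxcr5 a median of 0.22. Added after the data were seen, hashtags 1 to 4 alone gave ST2 over Foxp3-negative cells a median of 0.26, and ST2 over Foxp3 without ST2 2 lower and 0.19. The wider Foxp3 gate gave 0 lower and 0.21 for Foxp3 without ST2, and 1 higher and 0.08 for ST2 over it. The causes were not tested.

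Leaving out each hashtag gave ST2 over Foxp3-negative cells 0 to 1 lower and medians of 0.26 to 0.41 over hashtags 1 to 5, and 3 to 5 higher, 0 to 1 lower and 0.22 to 0.28 over hashtags 1 to 4. It gave 2 to 6 higher over the Cxcr3 gate. ST2 over Foxp3 without ST2 had 2 to 4 higher, 0 to 2 lower and 0.19 to 0.31, Foxp3 without ST2 had 0 to 2 lower, Cxcr3 over naive 2 to 5 higher, and Cxcr5 medians of 0.20 to 0.21. Gates were compared within each hashtag, and the labels number no replicates that could be paired beyond that. With 1 expression library and hashtags of unknown origin, intervals cover counting error only, and low genes such as Cpt1c and Ppara were not measurable in T cells at this depth.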

Other observations

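Left-out barcodes were also grouped by which marker list had at least 3 UMIs, so that a barcode can count in more than 1 group. The summed level of the 34 genes was 1994 CPM in 71 barcodes with stromal markers, 1925 CPM in 100 with adipocyte markers, 1605 CPM in 270 with endothelial markers, 1388 CPM in 241 with macrophage markers and 824 CPM in 64 with B cell markers, beside 1170 CPM in all T cells. Acaa2, the mitochondrial thiolase, was at 165 CPM in the stromal-marker barcodes (interval 136 to 198). Acsl1, an acyl-CoA synthetase, was at 48.8 CPM in the adipocyte-marker barcodes (interval 31.6 to 72.0). These barcodes also hold T cell RNA to an extent that was not tested, since a barcode can carry more than 1 cell. Hashtag doublets summed to 1238 CPM and barcodes with no hashtag call to 1168 CPM.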
